A study of Mus musculus with 25 samples.

Results

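The mouse Hox genes were examined as a family, taken as every gene of the count table named Hox, a cluster letter from a to d and a number. They were 39 of the 24984 genes of the table. The study followed how the strength of Ras signalling shapes tumours that arise from hepatic progenitors, at their liver site and at a peritoneal site of the same mice. BMEL cells are bipotential liver progenitors, a clonally derived line from embryonic liver of C57BL/6 and C3H crossed mice, which can turn into hepatocyte-like or bile duct-like cells. The 3 control BMEL cultures carried an empty vector according to the labels. The 3 RasLOW and 3 RasHIGH cultures were BMEL cells carrying the H-Ras G12V oncogene, sorted from transduced cells by low or high brightness of a reporter made from the same transcript, and the brightness ranges of such populations can overlap. The 16 remaining libraries came from 4 athymic nude mice, which lack T cells. These mice had received Ras-transduced BMEL cells into the liver and carried a liver tumour and a peritoneal tumour. From each tumour, cells with the fluorescent reporter (tumour cells) and cells without it (stroma) were sorted, which gave 4 libraries each of liver tumour cells, peritoneal tumour cells, liver stroma and peritoneal stroma. Whether RasLOW or RasHIGH cells had been injected into these 4 mice is not given by the labels.

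Hox genes encode homeodomain transcription factors and lie in gene clusters, A to D, in which the order of the genes along the chromosome follows the order in which they are used along the body from head to tail. Low paralogue numbers stand at the end of a cluster that is active near the head, and high numbers at the end that is active near the tail. Genes with the same number in different clusters are paralogues and often have overlapping roles. Adult cells can keep the Hox pattern of the place where they formed, and fibroblasts of different body sites are the classic example of such a positional code. Polycomb proteins keep silent Hox genes off, trithorax proteins keep active ones on, and retinoic acid and the Cdx factors help to switch them on in the embryo.

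In the mm9 build the 11 genes of cluster A spanned chromosome 6 from 52105366 to 52210874, the 10 genes of cluster B chromosome 11 from 96055630 to 96229570, the 9 genes of cluster C chromosome 15 from 102751534 to 102867274, and the 9 genes of cluster D chromosome 2 from 74506367 to 74603200. Many members overlap each other or another annotated RNA, among them Hoxa2 with Hoxa3, Hoxb7 with Hoxb8, Hoxd3 with Hoxd4, Hoxb2 and Hoxb3 with Hoxb3os, Hoxa3 and Hoxa7 with 2700086A05Rik, Hoxa9 with Mir196b, Hoxb4 with Mir10a, Hoxb5 with 0610040B09Rik, Hoxc5 and Hoxc10 with Gm20398, and Hoxd10 and Hoxd11 with Gm20440. The strand setting of the counting is not given in the sources used here, so reads in these overlaps cannot be assigned with certainty. Values are CPM, the counts of a gene for each 1000000 counts of its library after TMM scaling, and CPM per kilobase where levels of different genes are compared. The libraries held between 20818989 and 51241336 counts, so that 3 counts stood for 0.0576 to 0.141 CPM on the TMM scale, a limit that covers counting error only. The cultures are separate samples of 1 line per group, and for them p-values measure the spread between cultures, which may be technical.

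Marker genes were checked before the Hox values were read. Krt8, a keratin of hepatic progenitors, lay at 3902 CPM in liver tumour cells and 4623 CPM in peritoneal tumour cells, against 545 CPM and 360 CPM in the stroma of these sites, while Epcam, another epithelial marker, was close to 0 in cultured and tumour cells and reached at most 0.838 CPM there. The stroma was rich in leukocyte markers, with Ptprc at 974 CPM in liver stroma and 552 CPM in peritoneal stroma. The summed level of 12 fibroblast markers such as Col1a1 and Pdgfra was 4999 to 9930 CPM in liver stroma and 58332 to 88740 CPM in peritoneal stroma, without overlap. In tumour cells the same sum was 139 to 193 CPM at the liver site and 399 to 1707 CPM at the peritoneal site, and the highest value belonged to peritoneal tumour cells of mouse 1. In such bulk libraries, fewer cells of a type and less RNA per cell cannot be told apart.

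Each group had its own set of Hox transcripts. The number of members with more than 3 counts in every library of a group was 19 in control BMEL cells, 14 in RasLOW, 15 in RasHIGH, 14 in liver tumour cells, 11 in peritoneal tumour cells, 20 in liver stroma and 27 in peritoneal stroma. The epithelial groups carrying Ras drew nearly all their Hox transcripts from clusters A and B. In RasLOW, RasHIGH and both tumour cell groups no gene of clusters C and D passed 3 counts in every library, whereas 6 genes of cluster C and 4 of cluster D did so in peritoneal stroma. The summed Hox level was 89.9 ± 4.21 CPM (SD, n = 3) in BMEL, 41.4 ± 10.6 in RasLOW (n = 3), 45.4 ± 8.57 in RasHIGH (n = 3), 50.2 ± 2.84 in liver tumour cells (n = 4) and 42.7 ± 3.51 in peritoneal tumour cells (n = 4). In stroma it was 53.4 ± 9.95 CPM at the liver site and 153.9 ± 29.4 CPM at the peritoneal site (n = 4 each).

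**Figure D1:**
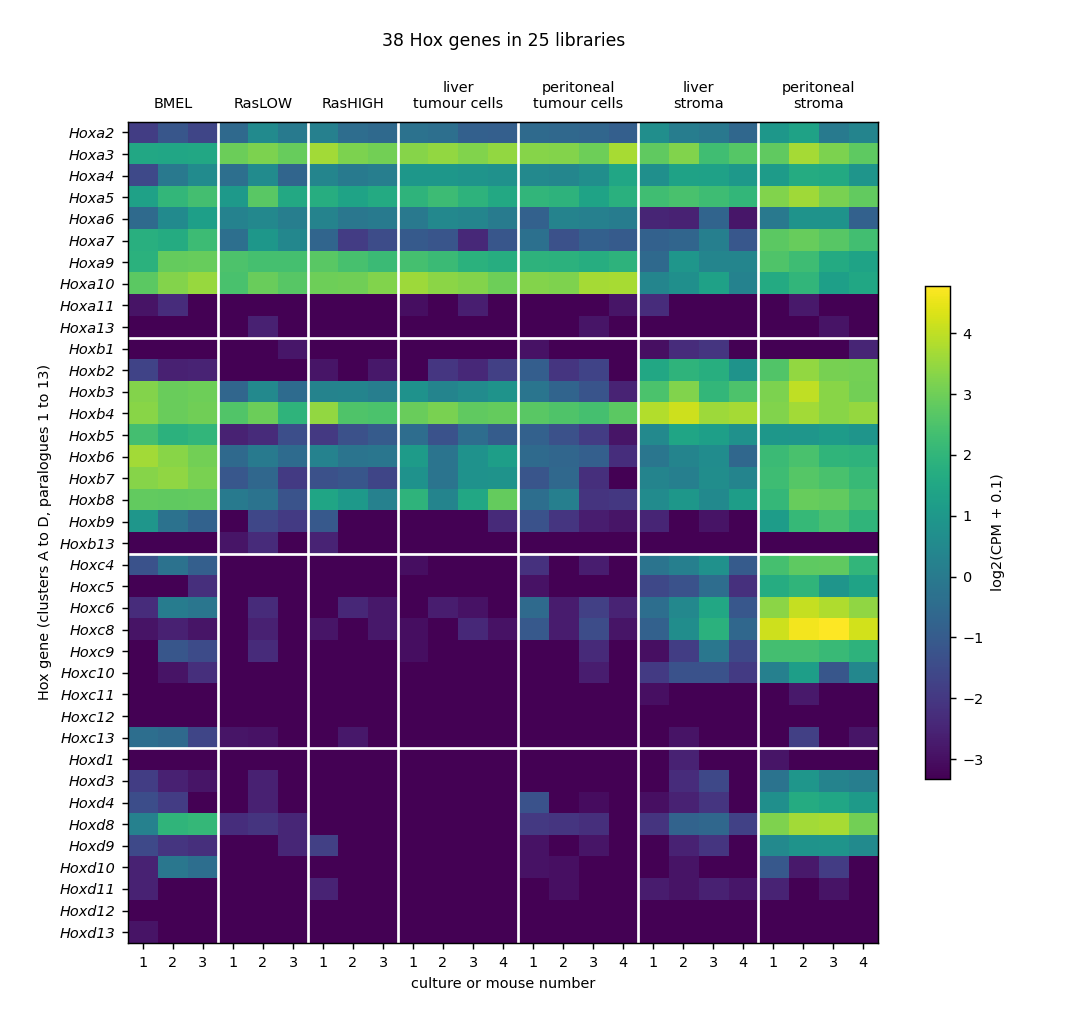
Heat map of 38 Hox genes (rows, by cluster and paralogue number) in the 25 libraries (columns, by group), with colour showing log2 of CPM plus 0.1. The genes Hoxc4 to Hoxc10 and Hoxd3, Hoxd4, Hoxd8 and Hoxd9 are brighter in the 4 peritoneal stroma libraries than in tumour cells, and the middle of cluster B is bright in the 3 control BMEL libraries.

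The shares of the 4 clusters in the summed Hox CPM do not depend on how libraries are scaled against each other. Cluster A held 38.7% of the Hox signal in BMEL (30.9% to 44.9%), 78.6% in RasLOW, 73.6% in RasHIGH, 67% in liver tumour cells and 79.2% in peritoneal tumour cells. Cluster B held 54.8% in BMEL (47.7% to 65.5%) and 20.7%, 26.1%, 32.9% and 19.1% in those groups. The 2 cluster shares thus traded places between control and Ras-carrying cells, with no overlap of the BMEL range and that of any Ras-carrying group. The summed level of cluster A was alike, at 35 CPM in BMEL and 32.4, 33.2, 33.6 and 33.8 CPM in those groups. That of cluster B was 49 CPM in BMEL and 8.63, 12, 16.5 and 8.13 CPM in them. In stroma the shares of A and B were lower and those of C and D higher at the peritoneal site. Cluster A gave 35.8% of the Hox signal in liver stroma (33.8% to 37.5%) and 24.4% in peritoneal stroma (21.9% to 27.8%). Cluster B gave 54.7% of the Hox signal at the liver site (46.7% to 58.6%) and 33.3% at the peritoneal site (31% to 36.5%), whereas cluster C gave 8.35% (4.17% to 17.5%) and 31.9% (30.8% to 33.8%). Cluster D gave 1.08% in liver stroma and 10.4% in peritoneal stroma. Grouped by paralogue number, the highest-numbered genes (9 to 13) held 6.45% of the liver stroma signal and 12% of the peritoneal one.

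**Figure D2:**
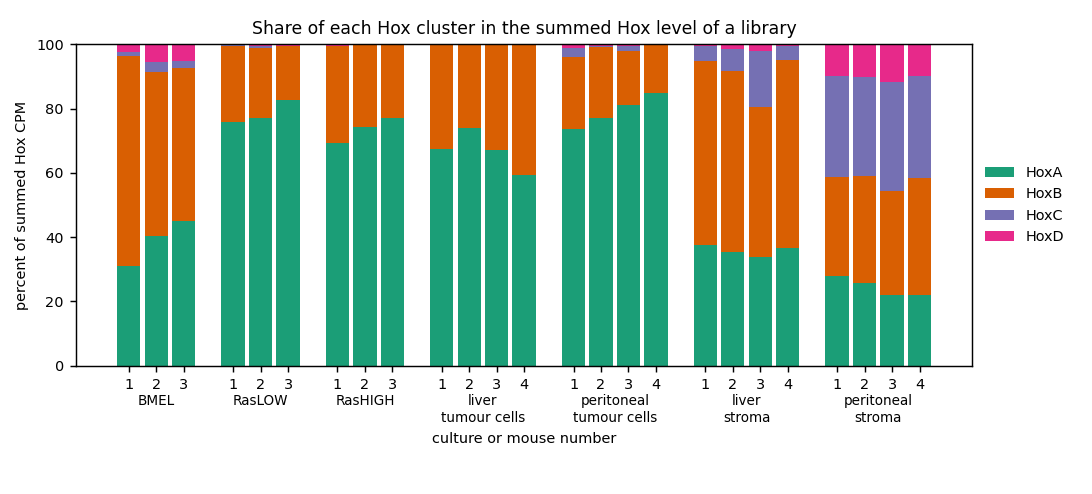
Stacked bars of the percent of the summed Hox CPM that came from clusters A, B, C and D in each of the 25 libraries. Cluster A takes 59.5% or more in every library of Ras-carrying cells, and cluster C takes 30.8% to 33.8% in the 4 peritoneal stroma libraries.

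In control BMEL cells among the highest levels per kilobase were those of Hoxb6 (4.91 ± 1.01 CPM per kilobase), Hoxb3 (2.74 ± 0.365), Hoxb8 (2.63 ± 0.0219), Hoxa10 (2.39 ± 0.622) and Hoxb7 (2.38 ± 0.238; SD, n = 3 for each). Hoxb6 stood above the others in every culture, and each of the following members overlapped the next in this order. Among the leading members in RasLOW cells were Hoxa5 (1.99 ± 1.25) and Hoxa10 (1.66 ± 0.282), whose ranges overlapped. RasHIGH cells were led by Hoxa10 (2.21 ± 0.217), Hoxb4 (1.78 ± 0.735) and Hoxa5 (1.54 ± 0.196), of which each again overlapped the next. Hoxa10, a gene best known from the uterus and from blood progenitors, also led in both tumour cell groups, at 2.56 ± 0.437 CPM per kilobase in the liver and 2.91 ± 0.54 in the peritoneum (n = 4 each).

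The first comparison asked which Hox genes differ between Ras-carrying and control progenitors in culture. The contiguous stretch of cluster B from Hoxb5 to Hoxb8, together with Hoxb3 and, in cluster D, Hoxd8, was lower in both Ras populations. Hoxb4, which lies between Hoxb3 and Hoxb5, was not called. Of the 17 members that passed the count filter, edgeR's quasi-likelihood test with Benjamini-Hochberg adjustment over all genes called 1 higher and 6 lower in RasLOW, where it called 5.96% of all genes tested (1.92% higher and 4.05% lower). In RasHIGH it called 2 higher and 8 lower, against 22.6% of all genes (10.9% higher and 11.7% lower). The median log2 fold change of the tested members was -0.59 in RasLOW and -1.04 in RasHIGH, against 0.01 and -0.02 over all genes tested. Both comparisons share the 3 control cultures, so their results are not independent. Members with few counts in the Ras cultures, such as Hoxb5, Hoxb7, Hoxb9 and Hoxd8, entered the test through their control counts. Hoxa2, with few control counts, entered through the Ras cultures. The numbers called and the medians are therefore a description.

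Hoxb6, a gene of trunk mesoderm and blood precursors, was at 12.4, 9.99 and 8.21 CPM in BMEL cultures 1, 2 and 3, at 0.575, 0.886 and 0.608 CPM in RasLOW, and at 1.1, 0.775 and 0.812 CPM in RasHIGH. Its neighbour Hoxb7 was at 9.74, 10.7 and 8.77 CPM in BMEL, at 0.359, 0.558 and 0.162 CPM in RasLOW, and at 0.303, 0.345 and 0.225 CPM in RasHIGH. Hoxb5, a regulator of the enteric nervous system and lung, had 5.06, 3.62 and 3.92 CPM in BMEL, 0.0719, 0.0984 and 0.284 CPM in RasLOW, and 0.152, 0.301 and 0.406 CPM in RasHIGH. All 3 genes were high in every control culture and low in every Ras culture, with no overlap. Of all genes tested, 13.9% were lower without overlap in RasLOW and 21% in RasHIGH. Against BMEL, the log2 fold change of Hoxb6 was -3.90 (SE 0.33, adjusted p = 0.00348 by the edgeR test) in RasLOW and -3.54 (SE 0.28, adjusted p = 0.000497) in RasHIGH. Hoxb7 differed by -4.75 (SE 0.44, adjusted p = 0.00416) and -5.08 (SE 0.27, adjusted p = 0.000155), and Hoxb5 by -4.82 (SE 0.54, adjusted p = 0.00642) and -3.91 (SE 0.42, adjusted p = 0.00129).

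Hoxb8, which can hold myeloid progenitors in an immature, dividing state when it is forced on, was at 6.98, 6.89 and 6.99 CPM in BMEL, at 0.899, 0.755 and 0.324 CPM in RasLOW, and at 2.61, 1.98 and 1.08 CPM in RasHIGH. It was nearly the same in all control cultures, and every Ras culture lay below them. Its log2 fold change was -3.42 (SE 0.40, adjusted p = 0.00754, edgeR) in RasLOW and -1.91 (SE 0.33, adjusted p = 0.00734) in RasHIGH. Hoxb3, a hindbrain gene, was at 9.5, 7.44 and 7.81 CPM in the control cultures and fell to 0.539, 1.31 and 0.608 CPM in the RasLOW cultures and 1.14, 1.16 and 0.992 CPM in the RasHIGH cultures, a log2 fold change of -3.34 (SE 0.42, adjusted p = 0.00913) and -2.94 (SE 0.24, adjusted p = 0.000534). The genes Hoxb7 and Hoxb8 overlap on the chromosome, and so do Hoxb3 and Hoxb3os, hence their values are not fully separate measurements.

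Hoxb4, known for its action in blood stem cells, stayed among the more abundant members in all epithelial groups. It was at 10, 7.58 and 7.99 CPM in BMEL, at 5.82, 7.74 and 3.73 CPM in RasLOW, and at 10.9, 5.73 and 5.55 CPM in RasHIGH. The groups overlapped, and the log2 fold change was -0.59 (SE 0.32, adjusted p = 0.339) in RasLOW and -0.25 (SE 0.30, adjusted p = 0.606) in RasHIGH, neither called by edgeR. The ratio of Hoxb8 to Hoxb4 within a library, which no scaling between libraries can alter, was 0.827 (0.697 to 0.909) in BMEL, 0.113 in RasLOW and 0.26 in RasHIGH. Hoxd8, a gene of the trunk, had 1.08, 3.86 and 4.07 CPM in BMEL and 0.108, 0.131 and 0.081 CPM in RasLOW, a log2 fold change of -4.77 (SE 0.67, adjusted p = 0.012). It had no count in any RasHIGH library, so that its level there was at least 22.2-fold lower than in BMEL, measured against 3 counts in the RasHIGH library where they stood for the highest CPM, 0.135 (adjusted p = 0.00675, edgeR). Hoxd8, like Hoxb5, Hoxb7 and Hoxb9, passed the filter through its counts in the control cultures.

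Cluster A moved less as a whole, with a median log2 fold change of -0.22 over 9 tested genes in RasLOW and -0.20 in RasHIGH, but its members went both ways. Hoxa3, a gene of the pharyngeal arches and thymus, was at 2.79, 2.69 and 2.81 CPM in BMEL, at 7.58, 9.02 and 7.25 CPM in RasLOW, and at 12.5, 9 and 8.21 CPM in RasHIGH. It rose without overlap in both, by a log2 fold change of 1.49 (SE 0.24, adjusted p = 0.0186) and 1.80 (SE 0.23, adjusted p = 0.00243) in the edgeR test. Hoxa2, which overlaps Hoxa3, had 0.175, 0.344 and 0.222 CPM in BMEL, 0.575, 1.38 and 0.891 CPM in RasLOW, and 1.06, 0.646 and 0.586 CPM in RasHIGH, and was called in RasHIGH (log2 fold change 1.58, SE 0.45, adjusted p = 0.0436 by edgeR) but not in RasLOW (1.90, SE 0.53, adjusted p = 0.085). The RasHIGH call of Hoxa2 held in 3 of 13 alternatives and the RasLOW call of Hoxa3 in 8 of 14.

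Hoxa7 was at 3.35, 3.03 and 4.62 CPM in BMEL, at 0.683, 1.84 and 1.26 CPM in RasLOW, and at 0.531, 0.172 and 0.27 CPM in RasHIGH. Every Ras culture lay below the control cultures, with a log2 fold change of -3.50 (SE 0.45, adjusted p = 0.00254) in RasHIGH and -1.56 (SE 0.44, adjusted p = 0.0881) in RasLOW, where it was not called by edgeR. Hoxa9 and Hoxa10 were not called in either population, with log2 fold changes between -0.55 and -0.15. Hoxa9, a driver of leukaemia together with Meis1, had 3.49, 7.13 and 7.36 CPM in BMEL, 5.57, 5.09 and 5.11 CPM in RasLOW, and 6.41, 5.21 and 4.46 CPM in RasHIGH. The ratio of Hoxb7 to Hoxa9 was 1.83 in BMEL, 0.0686 in RasLOW and 0.0547 in RasHIGH.

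Between RasHIGH and RasLOW themselves, edgeR called 0 of the 13 tested members, with 0.0752% of all genes called. Of these, 2 members had an unadjusted p under 0.05, and DESeq2 called 0. They were Hoxa7, with a log2 fold change of -1.94 (SE 0.59, adjusted p = 0.3), and Hoxb8, with 1.51 (SE 0.52, adjusted p = 0.379). The RasHIGH and RasLOW values of Hoxb8 did not overlap, at 1.08 to 2.61 CPM against 0.324 to 0.899 CPM. BMEL cultures 1 and 2 were sequenced in a different lane from all Ras cultures, and only BMEL culture 3 shared their lane. In that culture Hoxb7 was at 8.77 CPM, Hoxb6 at 8.21 CPM and Hoxd8 at 4.07 CPM, each above every Ras culture of that lane. With lane as a term in the edgeR fit, 2 members (Hoxb6 and Hoxb7) remained called in RasLOW and 6 (Hoxa7, Hoxb3, Hoxb5, Hoxb6, Hoxb7 and Hoxd8) in RasHIGH. Without RasLOW culture 2, in which several cluster A genes stood highest, 12 members were called in RasLOW against BMEL and 18.6% of all genes.

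**Figure D3:**
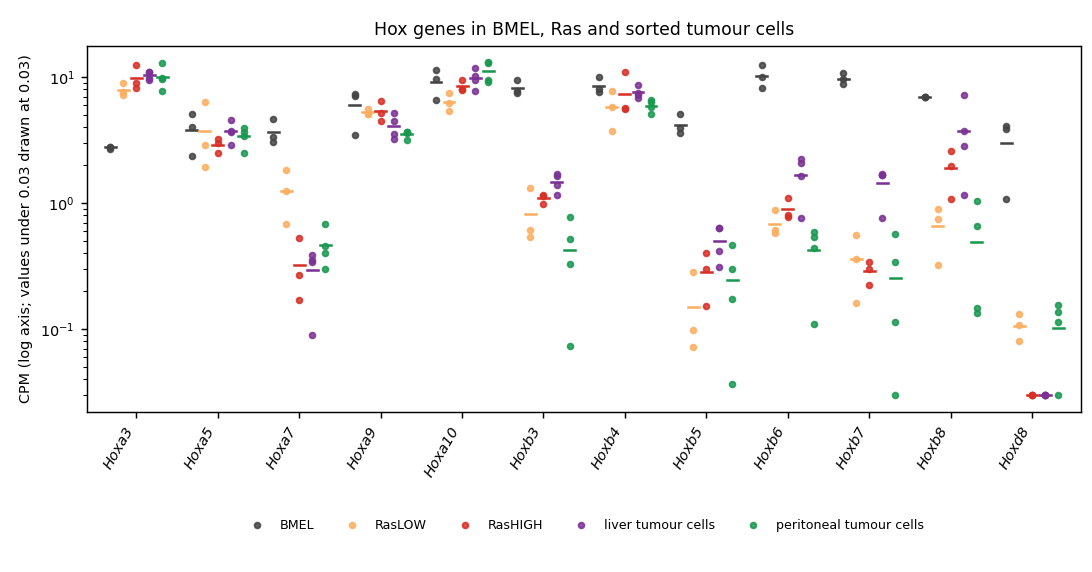
CPM (log axis) of 12 Hox genes in each library of control BMEL, RasLOW, RasHIGH, liver tumour and peritoneal tumour cells, 1 point per library with the group mean as a bar and values under 0.03 CPM drawn at 0.03. Hoxb5, Hoxb6, Hoxb7 and Hoxd8 are highest in the 3 control cultures, whereas Hoxb4 and Hoxa10 lie between 3.73 and 13.1 CPM in all 5 groups.

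The promoters of 3 members are shown because they went different ways: Hoxb8 and Hoxd8 fell in both Ras populations, and Hoxb4, which lies in cluster B between called neighbours, was not called. The windows run from 250 bases before to 50 bases after the RefSeq start in GRCm38.p6, on the plus strand. Hoxb8 lies at chr11:96281655-96281954, Hoxb4 at chr11:96318017-96318316 and Hoxd8 at chr2:74704365-74704664. Capitals mark matches, on either strand, to the letters TTTATNG, which Cdx factors bind.
Hoxb8: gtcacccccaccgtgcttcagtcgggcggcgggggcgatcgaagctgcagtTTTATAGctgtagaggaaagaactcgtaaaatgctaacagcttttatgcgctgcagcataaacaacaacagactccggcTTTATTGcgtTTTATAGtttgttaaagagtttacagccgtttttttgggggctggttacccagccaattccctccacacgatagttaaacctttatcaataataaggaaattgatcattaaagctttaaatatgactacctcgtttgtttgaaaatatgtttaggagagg
Hoxb4: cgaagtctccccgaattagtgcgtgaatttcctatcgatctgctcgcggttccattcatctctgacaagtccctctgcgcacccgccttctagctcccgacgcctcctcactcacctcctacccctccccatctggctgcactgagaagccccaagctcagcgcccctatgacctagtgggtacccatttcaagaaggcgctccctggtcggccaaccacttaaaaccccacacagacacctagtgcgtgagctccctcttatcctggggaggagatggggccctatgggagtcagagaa
Hoxd8: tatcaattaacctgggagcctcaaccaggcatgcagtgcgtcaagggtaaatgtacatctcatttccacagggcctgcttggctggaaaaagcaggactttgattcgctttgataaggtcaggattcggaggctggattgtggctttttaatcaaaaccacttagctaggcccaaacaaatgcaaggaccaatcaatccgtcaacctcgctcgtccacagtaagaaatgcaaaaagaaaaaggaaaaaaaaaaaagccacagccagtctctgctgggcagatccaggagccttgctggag
The Hoxb8 window holds 3 such matches and the other windows none. It also holds 1 match to TGATNNAT, a Pbx-Hox motif, 1 to CCAAT and 2 to TATAAA, which read on the other strand as part of the TTTATAG matches, while Hoxd8 holds 1 CCAAT and Hoxb4 none of the 4 motifs. Among 24 promoters of 22 Hox genes in the RefSeq table, 8.33% hold TTTATNG, against 10.9% of all 32851 promoters, and only those of Hoxd4 and Hoxb8 do so. TGATNNAT is in 16.7% of the Hox and 8.85% of all promoters, CCAAT in 62.5% and 37.4%, and TATAAA in 16.7% and 13.6%. Hox promoters had a median of 14.5 CpG sites against 7 in all promoters. The Hoxb4 window has 14 CpG sites, Hoxb8 13 and Hoxd8 6. A match is a run of letters and not a measured binding site.

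Cdx2, the intestinal member of the Cdx family, was the only gene of the 11 ParaHox, Evx and Mnx genes that passed the filter in the cultures. It was called higher in both Ras populations, standing at 28.7 ± 5.6 CPM in BMEL, at 58.8 ± 5.64 CPM in the RasLOW cultures and at 67 ± 9.09 CPM in the RasHIGH cultures (SD, n = 3 each), a log2 fold change of 1.0 (SE 0.17, adjusted p = 0.0223, edgeR) and 1.19 (SE 0.19, adjusted p = 0.00604). In liver and peritoneal tumour cells Cdx2 was at 10.3 ± 1.44 and 14.2 ± 2.22 CPM (n = 4 each), and in stroma near 1 CPM.

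The next comparisons asked how the Hox pattern of tumour cells relates to that of the cultures and whether it differs between sites. RasHIGH was used as the culture reference, although the injected population is not known from the labels. Of 15 tested members in liver tumour cells against RasHIGH, 2 were called higher and 1 lower by edgeR, with 45.1% of all genes called (23% higher and 22.1% lower). Hoxb7 was at 1.67, 0.763, 1.67 and 1.7 CPM in liver tumour cells of mice 1 to 4 and at 0.303, 0.345 and 0.225 CPM in RasHIGH, without overlap (log2 fold change 2.30, SE 0.41, adjusted p = 0.00212). Hoxa4 was also higher (0.78, SE 0.24, adjusted p = 0.0283). Hoxb7 kept its call whichever library was left out, but it was the only call without RasHIGH culture 2, without RasHIGH culture 3 and without liver tumour cells of mouse 1. It had 8, 8 and 5 counts in RasHIGH cultures 1 to 3 and passed the filter through its counts in liver tumour cells. By the study's thresholds, read as a log2 fold change beyond 1 with an unadjusted p under 0.05, 1 of the 15 passed, against 23.5% of all genes. In peritoneal tumour cells 0 of 13 tested members were called against RasHIGH by edgeR, with 37.9% of all genes called, while 3 had an unadjusted p under 0.05 and DESeq2 called 3. By these thresholds 1 passed there, against 20.1% of all genes. Hoxd8 had no count in any liver tumour cell library, at least 31.3-fold below control BMEL cells.

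Within the mice, the values of several cluster B genes lay lower in peritoneal than in liver tumour cells, without a call. Hoxb8 was at 3.76, 1.16, 2.82 and 7.23 CPM in liver tumour cells of mice 1 to 4 and at 0.656, 1.03, 0.134 and 0.148 CPM in peritoneal tumour cells. The 4 liver values lay above the 4 peritoneal ones, closely so in mouse 2. The log2 difference within a mouse (with 0.1 CPM added) was -2.35, -0.15, -3.64 and -4.89 in mice 1 to 4. Hoxb6 was at 2.08, 0.763, 1.64 and 2.24 CPM in the liver and at 0.593, 0.543, 0.442 and 0.111 CPM in the peritoneum. Hoxb3, Hoxb4 and Hoxb7 likewise did not overlap, so that 5 of 15 tested members were lower without overlap, against 6.5% of all genes tested. Members with few peritoneal counts, such as Hoxb7 with 11, 21, 6 and 0 counts in mice 1 to 4, passed the filter through their liver counts. The number without overlap is therefore a description.

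None of these differences was called. The edgeR test called 0 of the 15 members at an adjusted p under 0.05, with 3.2% of all genes called, and 5 had an unadjusted p under 0.05. The log2 fold change was -2.91 for Hoxb8 (SE 0.72, adjusted p = 0.0569), -1.96 for Hoxb6 (SE 0.49, adjusted p = 0.0613), -2.46 for Hoxb7 (SE 0.71, adjusted p = 0.0893), -1.77 for Hoxb3 (SE 0.51, adjusted p = 0.0893) and -0.34 for Hoxb4 (SE 0.15, adjusted p = 0.225). DESeq2 called 4 of them (Hoxb3, Hoxb6, Hoxb7 and Hoxb8), and so did a fit of all 25 libraries. The fold and p thresholds of the study, read here as a log2 fold change beyond 1 with an unadjusted p under 0.05, also gave 4, against 3.52% of all genes, whereas read with an adjusted p they gave 0. Without peritoneal tumour cells of mouse 1, edgeR called 3 (Hoxb3, Hoxb6 and Hoxb8), and without those of mouse 2 it called Hoxb8. Cluster A genes had a median log2 fold change of -0.07 between the sites, with Hoxa10 at 11.9, 10.2, 9.48 and 7.81 CPM in the liver and 9.55, 9.19, 12.8 and 13.1 CPM in the peritoneum. The ratio of Hoxb8 to Hoxb4 was 0.512 (0.134 to 1) in liver and 0.0828 (0.0226 to 0.179) in peritoneal tumour cells. Peritoneal tumour cells of mouse 1, with the highest fibroblast marker sum of that group, also had its highest Hoxc6 (0.593 CPM, against 0.0544 to 0.192 in the other mice) and Hoxc8 (0.375 CPM, against 0.0369 to 0.269). The leukocyte marker sum was highest in mouse 1 as well (245 CPM). Mouse 3 had Hoxc8 at 0.269 CPM with a fibroblast marker sum of 418 CPM, and mouse 2 had 0.0544 CPM with 514 CPM. Between tumour cells of the sites 7 of 12 fibroblast markers were called higher and 4 of 8 tested hepatocyte markers lower in the peritoneum, whose part in the Hox values was not tested.

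The stroma of the 2 sites was compared to describe the positional code of the cells that surround the tumours. With TMM scaling, Hox genes of all 4 clusters stood higher in peritoneal stroma, most of all those of clusters C and D and Hoxb9, while scaling to 12 fibroblast markers left this direction to Hoxb9, Hoxc8, Hoxd4, Hoxd8 and Hoxd9 among the called genes. Of 26 members tested, edgeR called 20 higher and 0 lower in peritoneal stroma, against 33.4% of all genes called (18.5% higher and 14.9% lower), a direction that turned for 13 of the 26 members when libraries were scaled to the 12 fibroblast markers. The median log2 fold change of the members was 2.15 and that of all genes -0.02 with TMM scaling, and -0.89 and -3.09 with the fibroblast scaling. Members with few counts in liver stroma, such as Hoxb9, Hoxd3, Hoxd4 and Hoxd9, entered the test through their peritoneal counts, so the number called is a description. The 12 fibroblast markers were all called higher in peritoneal stroma (median log2 fold change 3.11). Of the leukocyte markers 8 of 10 were called lower (summed level 7776 to 9739 CPM in liver and 5799 to 7286 CPM in peritoneal stroma), as were 8 of 8 tested hepatocyte markers (51.2 to 327.5 and 1.86 to 4.33 CPM) and 8 of 12 epithelial markers (2005 to 2673 and 1211 to 1728 CPM). Of the stellate cell markers 3 of 8 were called higher and 2 lower, of the mesothelial ones 2 of 8 and 1, and of the endothelial ones 1 of 11 and 3, and the part of these cell types in the Hox differences was not tested.

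Cluster D showed the widest gap. Hoxd8 was at 0.131, 0.491, 0.547 and 0.198 CPM in liver stroma of mice 1 to 4 and at 9.11, 12.6, 13.2 and 8.26 CPM in peritoneal stroma, a log2 fold change of 5.03 (SE 0.39, adjusted p = 1.43e-05, edgeR). Within each mouse the difference was 5.32, 4.43, 4.36 and 4.81. It also passed the test with fibroblast scaling, at 1.97 (adjusted p = 3.66e-05). Hoxd4, a gene of the hindbrain and neck, was at 0.0262, 0.0702, 0.137 and 0 CPM in liver stroma and at 1.53, 3.09, 2.67 and 2.02 CPM in peritoneal stroma (5.26, SE 0.56, adjusted p = 0.000103), and Hoxd9 and Hoxd3 had peritoneal levels of 1.31 to 1.73 and 0.747 to 1.83 CPM against at most 0.239 CPM in liver stroma. The 4 tested cluster D genes had a median log2 fold change of 4.94, and 3 of them, Hoxd4, Hoxd8 and Hoxd9, were also called higher with fibroblast scaling.

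In cluster C all 5 tested genes were called higher, with a median of 3.38, and among them only Hoxc8 was called higher with fibroblast scaling as well, while Hoxc4 turned to -0.40 without a call. Hoxc8, which patterns the brachial and thoracic trunk, was the most abundant member of peritoneal stroma per kilobase (9.57 ± 2.05 CPM per kilobase, SD, n = 4). It was at 0.472, 1.47, 3.49 and 0.555 CPM in liver stroma and at 17.6, 24.6, 27.3 and 18.5 CPM in peritoneal stroma, with no overlap (log2 fold change 3.93, SE 0.53, adjusted p = 0.000439, edgeR). Hoxc6, its neighbour in the trunk, was at 0.656, 1.26, 2.8 and 0.357 CPM in liver and at 10.2, 16.6, 14 and 10.6 CPM in peritoneal stroma (3.38, SE 0.50, adjusted p = 0.000746). Liver stroma of mouse 3 had the highest level of both genes in its group. Its fibroblast marker sum was 7337 CPM, below those of mice 1 and 2, and its stellate cell marker sum was the lowest of the group (114 CPM). Its mesothelial (198 CPM), leukocyte (9739 CPM) and epithelial (2673 CPM) marker sums were the highest. The part of these cell types in the 2 genes was not tested. Hoxc4 was at 0.397 to 1.61 CPM in liver and 3.96 to 6.79 CPM in peritoneal stroma, Hoxc5 at 0.119 to 0.649 and 1.77 to 3.84 CPM, and Hoxc9 at 0.0262 to 0.82 and 3.64 to 5.06 CPM. The ratio of Hoxc8 to Hoxb4 within a library was 0.113 (0.0328 to 0.294) in liver stroma and 2.04 (1.64 to 2.71) in peritoneal stroma.

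**Figure D4:**
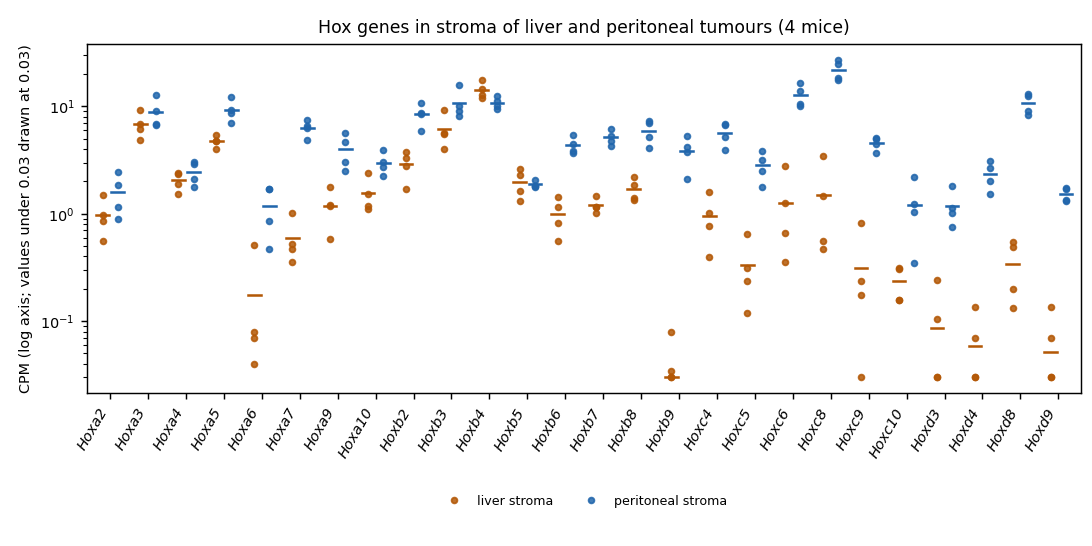
CPM (log axis) of 26 Hox genes with a mean of at least 1 CPM in some group, in liver stroma and peritoneal stroma, 1 point per mouse with the group mean as a bar and values under 0.03 CPM drawn at 0.03. Hoxb4 and Hoxb5 overlap between sites, while Hoxb9 and the genes of clusters C and D lie apart, on a scaling by TMM that the fibroblast scaling turns for 13 genes.

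Cluster B was split along its length. Its genes with high numbers were called higher in peritoneal stroma with TMM scaling, and Hoxb4 and Hoxb5 in its middle were not, and with fibroblast scaling only Hoxb9 of this cluster kept that direction. Hoxb9, a gene of the thoracic trunk, was at 0.0787, 0, 0.0342 and 0 CPM in liver stroma, 4 counts in all, and at 2.13, 4.22, 5.3 and 3.8 CPM in peritoneal stroma (log2 fold change 6.75, SE 0.60, adjusted p = 3.11e-05, edgeR). Hoxb8 was at 1.39, 1.86, 1.33 and 2.18 CPM in liver and 4.11, 7.31, 7.07 and 5.23 CPM in peritoneal stroma (1.86, SE 0.25, adjusted p = 0.000471), and was higher in 4 of 4 mice by 1.23 to 2.32, but turned to -1.31 with fibroblast scaling. Hoxb6 (2.17, SE 0.30, adjusted p = 0.000512) and Hoxb7 (2.14, SE 0.21, adjusted p = 5.19e-05) were called as well, and turned to -0.84 and -0.94. Hoxb4, the leading member of liver stroma per kilobase (3.42 ± 0.618), was at 14.4, 17.7, 11.8 and 12.8 CPM there and at 9.45, 12.6, 10.1 and 11.3 CPM in peritoneal stroma. It was lower in peritoneal stroma in 4 of 4 mice, with log2 differences of -0.60, -0.49, -0.23 and -0.19, without a call (log2 fold change -0.34, SE 0.16, adjusted p = 0.122). Hoxb5 had a log2 fold change of -0.01 (SE 0.26, adjusted p = 0.975).

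Of the head end of cluster B, Hoxb2 was at 2.81, 3.75, 3.28 and 1.71 CPM in liver stroma and at 5.9, 10.8, 8.63 and 8.45 CPM in peritoneal stroma (log2 fold change 1.59, SE 0.27, adjusted p = 0.00155, edgeR), with fibroblast scaling -1.44. Hoxb3 was called with overlapping groups, at 4.03 to 9.26 and 8.18 to 15.7 CPM (0.86, SE 0.29, adjusted p = 0.0429), a call that held in 8 of 17 alternatives and turned to -2.26 with fibroblast scaling. In cluster A, Hoxa7 stood out, at 0.472, 0.526, 1.02 and 0.357 CPM in liver stroma and at 6.5, 7.4, 6.24 and 4.89 CPM in peritoneal stroma (3.43, SE 0.32, adjusted p = 4.09e-05), and was not called with fibroblast scaling, where its value was 0.42. Hoxa5, a gene of the neck vertebrae and lung, was at 4.8, 5.4, 4.71 and 4.01 CPM in liver stroma and at 9.3, 12.3, 8.73 and 6.98 CPM in peritoneal stroma (1.02, SE 0.19, adjusted p = 0.00293). Hoxa9 (1.79, SE 0.38, adjusted p = 0.00549), Hoxa6 (2.77, SE 0.72, adjusted p = 0.0156) and Hoxa10 (0.99, SE 0.30, adjusted p = 0.0295) were called too, the last 2 with overlapping groups. Hoxa2, Hoxa3 and Hoxa4 were not called, at 0.31 to 0.73. With fibroblast scaling the genes of cluster A named here, other than Hoxa7, had negative values, from -2.81 for Hoxa4 to -0.29 for Hoxa6.

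Ordered by paralogue number, with TMM scaling 3 of 6 tested genes of groups 1 to 3 were called higher in peritoneal stroma (median log2 fold change 0.79). So were 12 of 15 of groups 4 to 8 (2.62) and 5 of 5 of groups 9 to 13 (3.91), against 18.5% of all genes. Of the 16 genes of groups 9 to 13 only these 5 were tested. Hoxb9, Hoxc9 and Hoxd9 entered the test through their peritoneal counts, so this order is a description. With fibroblast scaling 5 members were called higher, namely Hoxb9, Hoxc8, Hoxd4, Hoxd8 and Hoxd9, and 13 lower. That scaling called 97.1% of all genes, with a median log2 fold change of -3.09 over all genes. By cluster the medians with TMM scaling were 0.99 for A, 1.73 for B, 3.38 for C and 4.94 for D. A scaling factor moves all members by about the same log2 amount, so the spread among members, from -0.34 for Hoxb4 to 6.75 for Hoxb9, does not come from the scaling. With the mouse as a block, 20 members were called as without it, with lane as a term 19, and with 1 library left out 18 to 20.

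**Figure D5:**
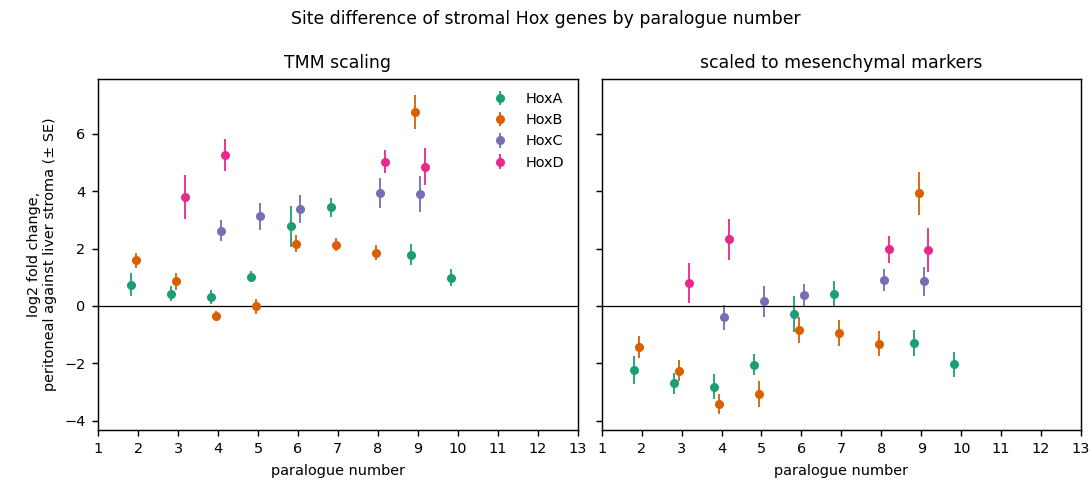
Log2 fold change of peritoneal against liver stroma (points, with SE as bars) for 25 tested Hox genes by paralogue number, coloured by cluster, with TMM scaling in the left panel and scaling to the 12 fibroblast markers in the right panel. The values run from -0.34 to 6.75 with TMM and from -3.41 to 3.92 with fibroblast scaling, and cluster D genes lie above cluster A genes of like number in both.

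Stroma and tumour cells of the same site were compared last. In the liver, edgeR called 7 of 19 tested members higher and 6 lower in stroma, against 77.8% of all genes called (39.4% higher and 38.4% lower). The members higher in stroma were Hoxb2 to Hoxb5, Hoxc4, Hoxc6 and Hoxc8, with Hoxb2 at 1.71 to 3.75 CPM in stroma and 0 to 0.192 CPM in tumour cells (log2 fold change 4.83, SE 0.56, adjusted p = 7.61e-06) and Hoxb4 by 0.94 (SE 0.15, adjusted p = 0.00012). Among the lower ones were Hoxa3, Hoxa6, Hoxa9, Hoxa10 and Hoxb8, with Hoxa10 at 1.11 to 2.39 CPM in stroma and 7.81 to 11.9 CPM in tumour cells (-2.63, SE 0.25, adjusted p = 1.22e-06). Epithelial markers were also present in liver stroma, with a summed level of 2357 CPM there and 10363 CPM in tumour cells. Of these 12 markers 10 were called lower and 2 higher in stroma, with a median log2 fold change of -2.71. The part of epithelial RNA in the stromal Hox values was not tested. Hoxa9 was likewise lower in stroma (-1.78, SE 0.32, adjusted p = 0.000283), while the call of Hoxb8 held in 8 of 15 alternatives. In the peritoneum 20 of 26 tested members were called higher in stroma and 2 lower, among them Hoxa10 (-1.97, SE 0.22, adjusted p = 5.17e-05), against 76.6% of all genes called (37.1% higher and 39.5% lower). Hoxc8 had a log2 fold change of 6.74 (SE 0.49, adjusted p = 5.53e-06), and Hoxb8 one of 3.52 (SE 0.62, adjusted p = 0.000759). Most cluster C and D genes had almost no counts in tumour cells and were tested through their stromal counts. Hoxd3 had no count in peritoneal tumour cells, at least 10.7-fold below peritoneal stroma.

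Whether the site difference itself differed between stroma and tumour cells was tested as an interaction over the 16 sorted libraries. Of 26 tested members, 8 had a larger peritoneal-minus-liver difference in stroma than in tumour cells by edgeR, and 0 a smaller one, against 14.3% of all genes called (6.79% in the first direction). They were Hoxa5, Hoxa6, Hoxa7, Hoxa9, Hoxb3, Hoxb6, Hoxb7 and Hoxb8. The largest was Hoxb8, with a log2 difference of differences of 4.69 (SE 0.81, adjusted p = 0.00129), followed by Hoxb7 with 4.52 (SE 0.72, adjusted p = 0.000739) and Hoxb6 with 4.04 (SE 0.59, adjusted p = 0.000389). In 4 of 4 mice Hoxb8 was higher in peritoneal than in liver stroma, and in 0 of 4 it was higher in peritoneal than in liver tumour cells. The stromal side of this contrast carries the scaling limit given above. Members with few counts in a group passed the filter through other groups. Examples are Hoxb7 with 11, 21, 6 and 0 counts in peritoneal tumour cells and Hoxa6 with 3, 2, 15 and 1 in liver stroma. Hoxb9 and most cluster C and D genes passed through peritoneal stroma. The number called in this interaction is therefore a description.

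The partners and regulators of Hox genes were read from lists, and their counts in stroma are given with TMM scaling, since the fibroblast scaling has a median of -3.09 over all genes. Of 8 tested TALE cofactors, the Pbx, Meis and Pknox proteins that bind DNA beside Hox proteins, 2 were called higher and 1 lower in RasHIGH against BMEL (22.6% of all genes called), where Pbx4 differed by a log2 fold change of -1.75 (SE 0.24, adjusted p = 0.00321). Between the stroma of the sites 4 rose and 1 fell (33.4% of all genes called), with Pknox2 at 3.34 ± 0.838 CPM in liver and 12.7 ± 2.93 CPM in peritoneal stroma (n = 4 each; 1.97, SE 0.23, adjusted p = 0.000185). Meis1, the partner of Hoxa9 in leukaemia, was higher in peritoneal stroma by 0.73 (SE 0.11, adjusted p = 0.000959). Among 26 Polycomb genes, Phf19, which brings the Polycomb complex to chromatin, fell in RasLOW (-4.34, SE 0.81, adjusted p = 0.0266) and RasHIGH (-5.67, SE 0.63, adjusted p = 0.00145), and Ezh2, its methyltransferase, fell in RasHIGH (-1.03, SE 0.24, adjusted p = 0.0232). In all, 1 fell in RasLOW (5.96% of all genes called), 2 rose and 2 fell in RasHIGH, and 2 rose and 7 fell in peritoneal against liver stroma. Of 18 trithorax and elongation genes 2 were higher and 0 lower in RasHIGH, beside 22.6% of all genes called (10.9% higher). In peritoneal stroma 1 was higher and 2 were lower, beside 33.4% of all genes called.

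Of the 18 genes of the retinoic acid pathway, 10 were tested in the cultures, with 2 lower in RasLOW and 2 higher and 3 lower in RasHIGH, beside 5.96% and 22.6% of all genes called. Aldh1a1, which makes retinoic acid, was at 177 ± 28.4 CPM in BMEL, 22.6 ± 22.1 CPM in RasLOW and 27.4 ± 8.04 CPM in RasHIGH (SD, n = 3 each), with a log2 fold change of -2.98 (SE 0.65, adjusted p = 0.0418, edgeR) and -2.73 (SE 0.24, adjusted p = 0.000611). Cyp26b1, which degrades it, was at 8.37 ± 2.24, 1.31 ± 1.04 and 0.213 ± 0.0595 CPM (-2.68, SE 0.59, adjusted p = 0.042, and -5.32, SE 0.39, adjusted p = 0.000378). Between the stroma of the sites 8 of 16 tested genes were called higher in the peritoneum and 2 lower, beside 33.4% of all genes called, and between tumour cells 1 of 14 was lower, beside 3.2%. Of 10 genes that flank the Hox clusters, 1 of 7 tested was called in each Ras population, Snx10 near cluster A (-1.88, SE 0.26, adjusted p = 0.0113, and -1.40, SE 0.23, adjusted p = 0.00617), and 2 of 8 were lower in peritoneal stroma, Skap1 near cluster B by -1.38 (SE 0.34, adjusted p = 0.0114) and Skap2 near cluster A by -0.30 (SE 0.09, adjusted p = 0.0294). All 6 other genes whose names begin with Hox, the antisense RNAs Hoxa11os, Hoxaas2, Hoxaas3, Hoxb3os, Hoxb5os and Hoxd3os1, had means under 1 CPM in every group.

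The 12 members with a mean under 1 CPM in every group belonged to the tail end of the clusters and to paralogue group 1. Hoxc12 and Hoxd12 had no count in any library, and Hoxd13, Hoxc11 and Hoxd1 had 1, 2 and 3 counts over all 25 libraries. Hoxa11, Hoxa13, Hoxb1, Hoxb13 and Hoxd11 had 13, 5, 12, 6 and 14 counts in all, and were not detectable at this depth in most libraries. Hoxc13, a gene of hair and nails, and Hoxd10, a gene of the hind limb, were seen in control BMEL cells, Hoxc13 at 0.663, 0.585 and 0.222 CPM and Hoxd10 at 0.0698, 0.826 and 0.666 CPM in cultures 1, 2 and 3. Hoxc10, a limb and tail gene that was described although it was not tested, was at 1.05, 2.2, 0.346 and 1.24 CPM in peritoneal stroma and at 0.158 to 0.316 CPM in liver stroma, without overlap.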

How the data were processed

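RNA was sequenced by the authors from NuGen Universal Plus mRNA libraries, and the deposited values are raw read counts per gene, without normalization. The study's methods give TopHat2 and mm9, whereas the submitters' processing notes list Bowtie 0.12.2, FastQC, mm8 and mm10, and the counting program, its strand setting and annotation are not given in the sources used here. All 25 columns were mapped to samples by the library identifier in the titles, 0 columns were left over, and 0 pairs of libraries were identical.

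Groups were compared in pairs on all genes, with edgeR 4.0.16 and limma 3.58.1 in R 4.3.3: filterByExpr (minimum count 10), TMM and the quasi-likelihood F-test (two-sided), with p-values adjusted over all genes that passed the filter (Benjamini-Hochberg) and a call at an adjusted p under 0.05. The SE is the log2 fold change divided by the square root of F. CPM were TMM-scaled over all libraries. Kilobase lengths and positions came from the GENCODE annotation of mm9, which held 20376 genes of the table (81.6%) and all 39 members. The steps were tested on simulated data with 200 changed genes.

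The counts cover all 39 members, of which 1 is not reported here by name or drawn in the plots of single genes. Members with a mean of at least 1 CPM in any of the 7 groups, and Hoxb8, were described (27), and the others counted (12); of the other lists, the 2 genes with the smallest adjusted p in a comparison were given as examples. The members and lists were chosen with earlier results of these data known. The alternatives were DESeq2 1.42.0, RLE, total counts only, no filter, at least 2 CPM in 1 library, 1 fit of all libraries, replicate number, mouse or lane as a term, scaling to fibroblast markers, the fold and p thresholds of the study, and leaving out each library. Same-numbered sorted libraries come from the same mouse by the labels, and their deviations from the group means correlated at -0.22 to 0.29. Lane was read from the labels.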

Additional observations from a re-analysis of the deposited data

Results flagged for a closer look

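In groups of 4 mice, 62 sets of values were examined for a library standing apart by Dixon's ratio, which chance alone would give in about 1 of 20 sets, and 2 were found. In peritoneal stroma Hoxb5 was at 2.08 CPM in mouse 3 and at 1.78 to 1.83 CPM in the other mice. In liver tumour cells Hoxb7 was at 0.763 CPM in mouse 2 and at 1.67 to 1.7 CPM in the other mice.

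The peritoneal-minus-liver difference was larger in stroma than in tumour cells by the interaction test of edgeR for 8 members, with log2 differences of 1.07 for Hoxa5, 2.90 for Hoxa6, 2.70 for Hoxa7, 1.93 for Hoxa9, 2.55 for Hoxb3, 4.04 for Hoxb6, 4.52 for Hoxb7 and 4.69 for Hoxb8. Some of these had few counts in 1 of the groups, so their number is a description.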

How the results depend on the processing

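In RasLOW against BMEL, 7 members were called, 11 in 1 fit of all libraries, 2 with lane as a term, 6 with the replicate block and 5 to 12 with a library left out. In RasHIGH the count of 10 became 6 with lane as a term, 9 with the replicate block and 8 to 12 with a library left out. Replicate numbers of the cultures did not pair the samples (correlations from -0.64 to 0.30). Against RasLOW, RasHIGH had 1 call in the fit of all libraries. Between tumour cells of the sites, 0 calls became 4 with DESeq2, 1 without a filter, 4 in the fit of all libraries, 4 by the study's thresholds and 0 to 3 with a library left out. For liver stroma against liver tumour cells 13 became 21 without a filter. For liver tumour cells against RasHIGH 3 became 0 at 2 CPM, 1 by the study's thresholds and 1 to 3 with a library left out, and for peritoneal tumour cells 0 became 3 with DESeq2, 1 with total counts only, 5 in the fit of all libraries, 1 by the study's thresholds and 0 to 1 with a library left out. With the mouse as a block, Hoxa5 was added in liver stroma against liver tumour cells (14 calls) and no other call changed. In stroma, fibroblast scaling turned Hoxa2 (-2.23), Hoxa3 (-2.70), Hoxa4 (-2.81), Hoxa5 (-2.05), Hoxa6 (-0.29), Hoxa9 (-1.29), Hoxa10 (-2.04), Hoxb2 (-1.44), Hoxb3 (-2.26), Hoxb6 (-0.84), Hoxb7 (-0.94), Hoxb8 (-1.31) and Hoxc4 (-0.40). It sets the fibroblast genes to no change and calls 97.1% of all genes. The cause of the other changes was not tested.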

Other observations

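The 3 control cultures were alike in some members, such as Hoxb8 (6.98, 6.89 and 6.99 CPM), while culture 1 stood apart in others, which were chosen after their values were seen. BMEL culture 1 had the lowest Hoxd8 (1.08 CPM, against 3.86 and 4.07), Hoxc6 (0.105 CPM, against 0.964 and 0.814), Hoxa4 (0.244 CPM, against 0.861 and 1.41), Hoxa9 (3.49 CPM, against 7.13 and 7.36) and Hoxd10 (0.0698 CPM, against 0.826 and 0.666), and the highest Hoxb6 (12.4 CPM, against 9.99 and 8.21) and Hoxb9 (1.81 CPM, against 0.723 and 0.481). Culture 1 and culture 2 shared a lane.

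Peritoneal tumour cells of mouse 4 had the lowest Hoxb3 (0.0738 CPM), Hoxb5 (0.0369 CPM), Hoxb6 (0.111 CPM) and Hoxb7 (0 CPM) of their group, while liver tumour cells of the same mouse had the highest Hoxb3 (1.7 CPM), Hoxb6 (2.24 CPM), Hoxb7 (1.7 CPM) and Hoxb8 (7.23 CPM) of theirs.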
